A study of Mus musculus with 2 samples.

Results

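The genes described here are 38 genes of protein folding and secretion in the endoplasmic reticulum (ER), out of 31253 genes counted in 2 single-cell libraries of mouse intestine. They form a list of named genes, drawn up with earlier results of these libraries known, and all 38 have a row in the count matrices. Their branches are 11 ER chaperones and co-chaperones, 6 disulfide isomerases, 8 genes of ER-associated degradation, 6 genes of the translocon and signal peptidase, 5 genes of the Atf4 branch, and the pair Xbp1 and Mzb1.

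Each library held cells dissociated from the whole intestine of 1 mouse. The butyrate library came from a mouse given a diet with 1% butyrate. The RA library came from a mouse on standard chow whose group the series' design text calls CIA, the usual short form of collagen-induced arthritis. Both mice are labelled wild type in genotype, and the labels used here give no strain, sex, age or length of feeding, and leave it unsaid if arthritis had been induced in the butyrate mouse too. Transcripts were tagged at their 3′ ends and counted as unique molecular identifiers (UMIs). Levels below are counts per 1000000 UMIs (CPM) of a cell class in a library. With 1 mouse per library, a difference between butyrate and RA has no replicate check, and its 95% interval covers counting error only. Diet, mouse and library cannot be told apart.

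The ER is where secreted and membrane proteins are threaded through the translocon, trimmed by signal peptidase, folded by chaperones and cross-linked by disulfide isomerases. Chains that fail to fold are pulled back to the cytosol and degraded, a route called ER-associated degradation. When unfolded chains collect, the sensor Ire1 splices Xbp1 mRNA into the message of a factor that raises chaperone and degradation genes, Atf6 is cut into another such factor, and Perk slows translation while Atf4 is made, whose targets include Ddit3, Trib3, Chac1 and Asns. Plasma cells, which export antibody, and goblet cells, which export mucin, are the classic secretory cells of the gut, and Xbp1 is needed for plasma cell secretion.

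The stretches of DNA that these factors read can be seen in the members' own promoters, so 7 are shown, at least 1 for each of 4 branches, chosen after the values below were seen. RefSeq promoters (build GRCm38.p6, 250 bases before to 50 after the gene's start) were matched for 32 of the 38 members. Ssr2, Hyou1, Manf, Sec11c, Derl1 and Mzb1 had no match. The sequences run 5′ to 3′ on the gene's strand. Capitals mark the ER stress response element (CCAAT and CCACG with 9 bases between them), its second form (ATTGG, 1 base, CCACG) or the Atf4 composite element (TGATGNAA), each searched on both strands, so that a match on the other strand shows as its reverse complement.
Hspa5, chr2:34771840-34772139, + strand: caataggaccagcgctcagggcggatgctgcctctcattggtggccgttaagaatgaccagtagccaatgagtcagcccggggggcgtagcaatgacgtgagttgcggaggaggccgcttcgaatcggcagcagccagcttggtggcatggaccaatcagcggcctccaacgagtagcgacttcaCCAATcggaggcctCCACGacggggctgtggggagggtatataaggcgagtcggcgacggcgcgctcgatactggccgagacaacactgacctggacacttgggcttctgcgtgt
Pdia6, chr12:17266339-17266638, + strand: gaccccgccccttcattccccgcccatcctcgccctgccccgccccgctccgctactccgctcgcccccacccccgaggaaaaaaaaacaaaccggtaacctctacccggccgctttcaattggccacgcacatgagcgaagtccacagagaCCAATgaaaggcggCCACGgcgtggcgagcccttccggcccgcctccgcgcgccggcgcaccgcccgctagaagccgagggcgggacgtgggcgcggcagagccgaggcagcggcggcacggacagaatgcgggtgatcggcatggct
Derl3, chr10:75893148-75893447, + strand: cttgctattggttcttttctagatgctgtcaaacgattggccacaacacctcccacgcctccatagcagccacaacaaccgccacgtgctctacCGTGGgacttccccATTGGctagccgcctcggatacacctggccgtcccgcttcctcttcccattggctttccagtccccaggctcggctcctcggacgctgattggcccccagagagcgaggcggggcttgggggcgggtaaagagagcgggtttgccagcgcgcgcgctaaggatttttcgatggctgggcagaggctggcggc
Syvn1, chr19:6046326-6046625, + strand: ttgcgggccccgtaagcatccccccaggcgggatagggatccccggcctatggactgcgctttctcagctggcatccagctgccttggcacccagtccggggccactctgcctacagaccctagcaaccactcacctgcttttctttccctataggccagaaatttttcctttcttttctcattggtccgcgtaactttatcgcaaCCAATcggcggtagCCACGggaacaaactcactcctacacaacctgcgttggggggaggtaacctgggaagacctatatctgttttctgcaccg
Herpud1, chr8:94386179-94386478, + strand: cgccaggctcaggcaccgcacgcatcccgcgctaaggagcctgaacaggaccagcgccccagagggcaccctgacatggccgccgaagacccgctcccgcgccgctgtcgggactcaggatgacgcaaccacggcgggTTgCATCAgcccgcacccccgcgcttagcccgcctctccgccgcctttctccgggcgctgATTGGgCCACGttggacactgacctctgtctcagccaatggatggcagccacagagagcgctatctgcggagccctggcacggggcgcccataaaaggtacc
Chac1, chr2:119350992-119351291, + strand: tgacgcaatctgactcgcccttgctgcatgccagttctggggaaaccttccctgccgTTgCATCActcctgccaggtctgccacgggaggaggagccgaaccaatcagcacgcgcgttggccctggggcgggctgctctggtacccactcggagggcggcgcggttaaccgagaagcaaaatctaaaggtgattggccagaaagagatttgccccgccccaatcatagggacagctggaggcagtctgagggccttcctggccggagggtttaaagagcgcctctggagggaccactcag
Asns, chr6:7693160-7693459, − strand: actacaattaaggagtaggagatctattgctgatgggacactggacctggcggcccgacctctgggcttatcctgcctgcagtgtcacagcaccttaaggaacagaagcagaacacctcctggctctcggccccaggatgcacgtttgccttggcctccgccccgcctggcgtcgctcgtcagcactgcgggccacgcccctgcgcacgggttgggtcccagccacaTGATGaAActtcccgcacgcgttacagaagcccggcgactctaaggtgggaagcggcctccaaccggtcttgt

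The first match began 65 bases before the start in Hspa5, 98 in Pdia6, 156 in Derl3 and 44 in Syvn1, all of them the ER stress response element. Herpud1 held the second form, 52 bases before its start, and an Atf4 composite element. The Atf4 element began 193 bases before the start of Chac1 and 23 before that of Asns. Over the 32 promoters, the ER stress response element stood in 9 (28.1%), against 37 of 27025 RefSeq genes (0.137%). Those 9 were Calr, Canx, Creld2, Derl3, Dnajc3, Hsp90b1, Hspa5, Pdia6 and Syvn1, of which 6 are among the 9 chaperones with a promoter. The second form stood in Dnajb11 and Herpud1, against 12 of all genes (0.0444%). The Atf4 element stood in 5 members, Asns, Chac1, Herpud1, Trib3 and Txndc5, against 1219 of all genes (4.51%). The core TGACGTGG, read by spliced Xbp1 and Atf6, stood in Txndc5 and Txndc11, against 193 of all genes (0.714%). A match describes these letters only. It shows no binding in these cells.

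The butyrate matrix held 9959 barcodes and 67894477 UMIs and the RA matrix 10140 barcodes and 61912439 UMIs, with 27 barcode sequences in both. A barcode was used if it held 500 or more UMIs from 250 or more genes with a mitochondrial share up to 25%, which left 8247 in butyrate and 6909 in RA, with medians of 5141 and 4712 UMIs. Classes were set by marker UMIs. Plasma cells had at least 20 Jchain UMIs, and goblet cells at least 1 Epcam and 10 Muc2 UMIs. Other Epcam-positive cells had at least 1 Epcam UMI, B cells at least 1 Cd79a UMI, fibroblasts at least 2 Col1a2 UMIs and macrophages at least 10 UMIs of C1qa, C1qb and C1qc together. Barcodes meeting rules of several lineages, 988 in butyrate and 826 in RA, were left out. This left 43 and 49 plasma cells, 116 and 125 goblet cells, 1036 and 803 other Epcam-positive cells, 4137 and 2769 B cells, 284 and 708 fibroblasts and 79 and 104 macrophages in butyrate and RA.

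Markers other than those in the rules were checked in each class. The goblet cell gene Clca1 was at 11157 CPM in butyrate and 3347 in RA goblet cells, and Fcgbp, another, at 6284 and 2911 CPM. In B cells the B cell gene Ms4a1 was at 484 and 499 CPM. The mucin gene Muc2, itself part of the goblet rule, was at 13653 CPM in butyrate and 9057 in RA goblet cells. It was at 49.8 and 88.4 CPM in B cells, which do not make it and so show the level of free RNA. The macrophage gene Csf1r was at 483 and 444 CPM in macrophages, and the collagen gene Col1a1 at 2192 and 1800 CPM in fibroblasts. The other Epcam-positive class was mixed. In butyrate 263 of its 1036 cells and in RA 218 of 803 held no UMI of the keratin gene Krt8, and the T cell gene Cd3e was at 70.8 and 45.3 CPM, against 2.21 and 3.87 CPM in goblet cells. The plasma class differed between libraries. Of its cells, 28 of 43 in butyrate and 7 of 49 in RA held a UMI of Ms4a1, a B cell gene that plasma cells switch off. Immunoglobulin genes and Jchain made 12.5% of the UMIs of the butyrate class and 37.4% of those of the RA class. The plasma cell receptor Tnfrsf17 was at 77.9 CPM in butyrate and 396 in RA, and the proliferation gene Mki67 at 336 and 35.6 CPM. The adipocyte genes Adipoq, Plin1, Cfd and Fabp4 summed to 1.20 CPM in butyrate, with 3 of the 4 at 0, and to 3897 CPM in RA plasma cells, most of it Cfd, and their part in the values below was not tested. Values for plasma cells are therefore given again for Jchain-rich barcodes with no Ms4a1 UMI.

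The members took their greatest share of transcripts in plasma cells and their smallest in the Epcam-positive cells that were not goblet cells. In plasma cells they made 1.52% of UMIs in butyrate and 2.03% in RA. In goblet cells they made 0.759% and 0.604%, and in macrophages 0.764% and 0.662%. Fibroblasts stood at 0.517% and 0.411%, B cells at 0.416% and 0.371%, and other Epcam-positive cells at 0.359% and 0.351%. The order of plasma cells first and other Epcam-positive cells last was the same in both libraries, while goblet cells and macrophages, at neighbouring places, had overlapping counting intervals in butyrate but not in RA. Single cells varied widely within a class. The summed members ran from 3255 to 55293 CPM over the butyrate plasma cells, median 19728, and from 3496 to 40404 CPM over the RA plasma cells, median 18985. Over goblet cells the medians were 6922 CPM in butyrate and 4831 CPM in RA.

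**Figure D1:**
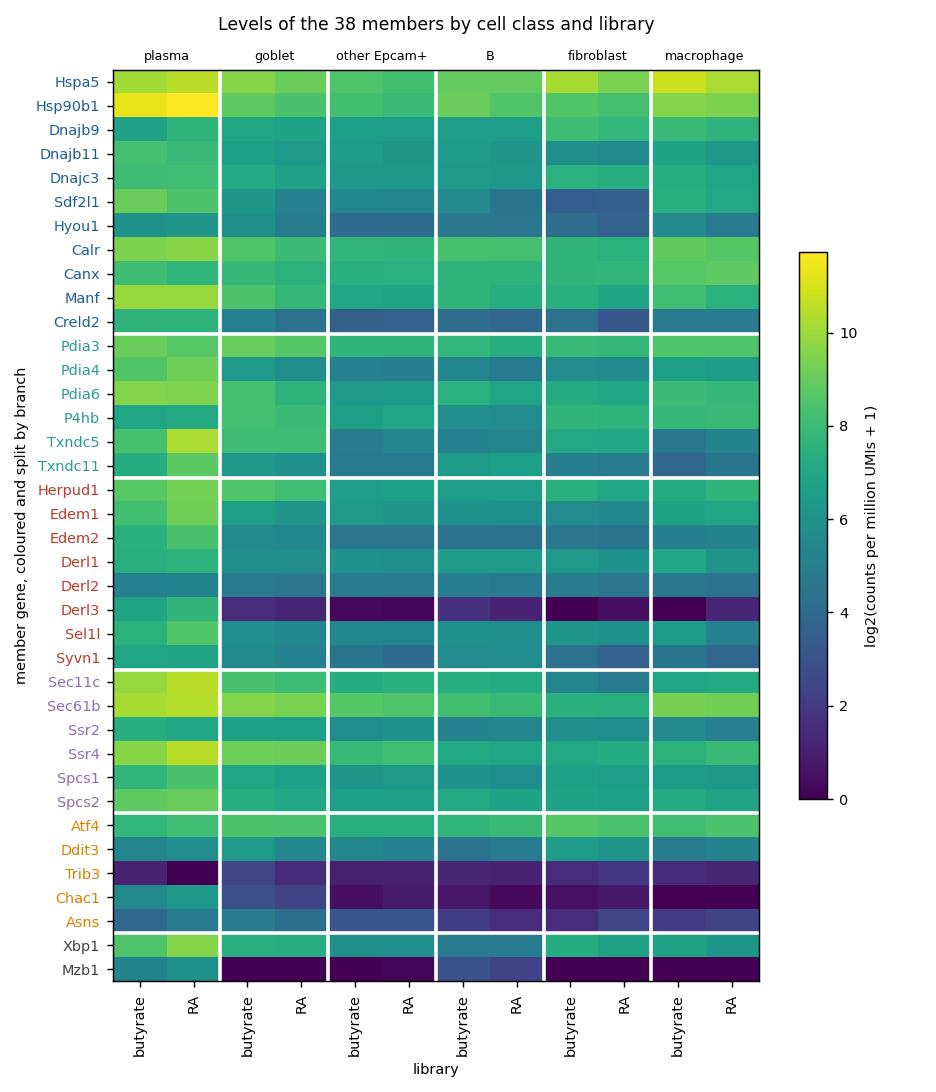
Heat map of the level of each of the 38 members (rows, split by branch) in the 6 cell classes, with the butyrate library left of the RA library in each class. Colour is log2(CPM + 1); most chaperone, degradation and translocon genes are brightest in the plasma columns, whereas Atf4 is not.

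In butyrate 30 and in RA 32 of the 38 members had their highest level in plasma cells. Hspa5 (BiP), the ER's Hsp70 chaperone and a brake on the stress sensors, was highest in macrophages of the butyrate library, at 1790 CPM, against 1192 CPM in RA macrophages. Plasma cells had 1091 CPM of Hspa5 in butyrate and 1410 in RA. With barcodes of several lineages kept and those with a Ms4a1 UMI left out, they had 1894 and 1459 CPM, above macrophages in both libraries. Fibroblasts had 1153 and 654.5 CPM. Goblet cells followed at 767.6 and 545.2 CPM, B cells at 486.5 and 486.3 CPM, and other Epcam-positive cells were lowest at 360.3 and 291 CPM. Hsp90b1 (Grp94), the ER's Hsp90, reached 2592 CPM in butyrate and 3388 CPM in RA plasma cells, against 452.3 and 326.5 CPM in goblet cells. The libraries thus did not overlap between those classes for Hsp90b1.

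Xbp1 was highest in the secretory classes in both libraries. It was at 362.1 CPM in butyrate and 742.9 CPM in RA plasma cells, at 169.6 and 155.5 CPM in goblet cells, and at 150.8 and 106 CPM in fibroblasts. It was at 107.8 and 73.6 CPM in macrophages, at 56.4 and 56.7 CPM in other Epcam-positive cells, and at 28.3 CPM in B cells of both libraries. The counts do not tell spliced from unspliced Xbp1. Mzb1, an ER chaperone partner that assists IgM assembly and belongs to the B lineage, was at 38.4 CPM in butyrate and 57.3 in RA plasma cells and at 6.54 and 4.37 CPM in B cells. It had 0 UMIs in goblet cells, fibroblasts and macrophages of both libraries. Against a floor of 3 UMIs per library it was at least 29.0-fold higher in plasma than in goblet cells in butyrate and at least 44.4-fold in RA.

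Derl3, a derlin that helps chains leave the ER for degradation, was highest in plasma cells, at 112.7 CPM in butyrate and 202.8 CPM in RA. B cells had 2.22 and 1.25 CPM of it, and goblet cells 1.77 and 1.29 CPM, from 4 and 3 UMIs. Chac1, a glutathione-degrading enzyme induced through Atf4, was at 45.6 and 74.3 CPM in plasma cells, at 6.18 and 4.30 CPM in goblet cells and at 0.697 and 0.234 CPM in B cells. Trib3, a pseudokinase that Atf4 and Ddit3 induce, had at most 32 UMIs in any class of a library and was not tested. Atf4 itself was not highest in plasma or goblet cells in either library. It was at 219.4 CPM in butyrate and 277.1 CPM in RA plasma cells, at 345.4 and 339.8 CPM in goblet cells, and at 389.4 and 336.2 CPM in fibroblasts. Atf4 is controlled mostly at translation, which these counts do not see.

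Plasma cells were next compared with B cells, the cells they arise from. The UMIs were summed by class and library, and edgeR's quasi-likelihood test was fitted to the 12 sums with a term for library, so that each class has 2 mice, 1 per library. The library term takes up a difference that all classes share, so the p-values and SEs do not measure the spread between mice. They rest on how far class differences vary between the 2 libraries, with each gene's spread estimated over all cell classes together. The 2 mice were also fed differently. Of the 37 members tested, 32 were higher in plasma cells than in B cells at an adjusted p under 0.05 and 0 were lower. Over all 13737 genes tested, 8.1% were called higher and 14% lower. The members' median log2 fold change was 2.44, against −0.34 over all genes tested. All 37 members had a smaller log2 difference in butyrate than in RA. Values by library, given below, are differences of log2 CPM with a prior count of 2, which pulls low genes towards 0. Leaving out either library gave medians between 1.63 and 2.68.

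The translocon and isomerase branches were called as a whole. All 6 isomerases and all 6 translocon and signal peptidase genes were higher in plasma cells, with 7 of 8 degradation genes, 9 of 11 chaperones, 2 of 4 tested genes of the Atf4 branch, and both Xbp1 and Mzb1. Chac1 had the largest log2 fold change, 6.90 ± 0.61 (SE, n = 2 mice; edgeR adjusted p = 6.2e-05), with 5.13 in butyrate and 7.22 in RA. It rested on 38 and 48 UMIs in plasma cells and 16 and 3 UMIs in B cells of butyrate and RA. The CPM ratios were 65.3 (95% counting interval 35.6 to 125) and 317 (102 to 1593). Derl3 followed at 6.48 ± 0.46 (edgeR adjusted p = 2.4e-05), with 5.10 in butyrate and 7.18 in RA. Xbp1 was 4.51 ± 0.45 higher, Txndc5, an isomerase abundant in plasma cells, 4.43 ± 0.54, and Pdia4, another isomerase, 3.96 ± 0.38. Hspa5 had a log2 fold change of 1.59 ± 0.36 (edgeR adjusted p = 0.0087). Mzb1 was 3.22 ± 0.51 higher in edgeR, a call that DESeq2 did not make (adjusted p = 0.577).

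The 5 members not called had the smallest differences. Atf4 had a log2 fold change of 0.28 ± 0.25 (edgeR adjusted p = 0.48), Derl2, another derlin, 0.36 ± 0.27, and Canx (calnexin), the membrane lectin chaperone, 0.45 ± 0.20. Dnajb9, an Hsp40 partner of Hspa5 that also holds Ire1 in check, had 0.87 ± 0.35, with −0.18 in butyrate and 1.21 in RA. Ddit3 (Chop), the stress factor tied to cell death, had 1.02 ± 0.39. In the butyrate library Atf4, Derl2 and Dnajb9 were lower in plasma than in B cells, and in RA higher. Most of those butyrate plasma cells held a Ms4a1 UMI. In Jchain-rich barcodes without it, several lineages allowed, Dnajb9 was at 200 CPM in butyrate and 206 CPM in RA. Derl2 was at 48.8 and 41.9 CPM there, and Atf4 at 250 and 248 CPM.

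**Figure D2:**
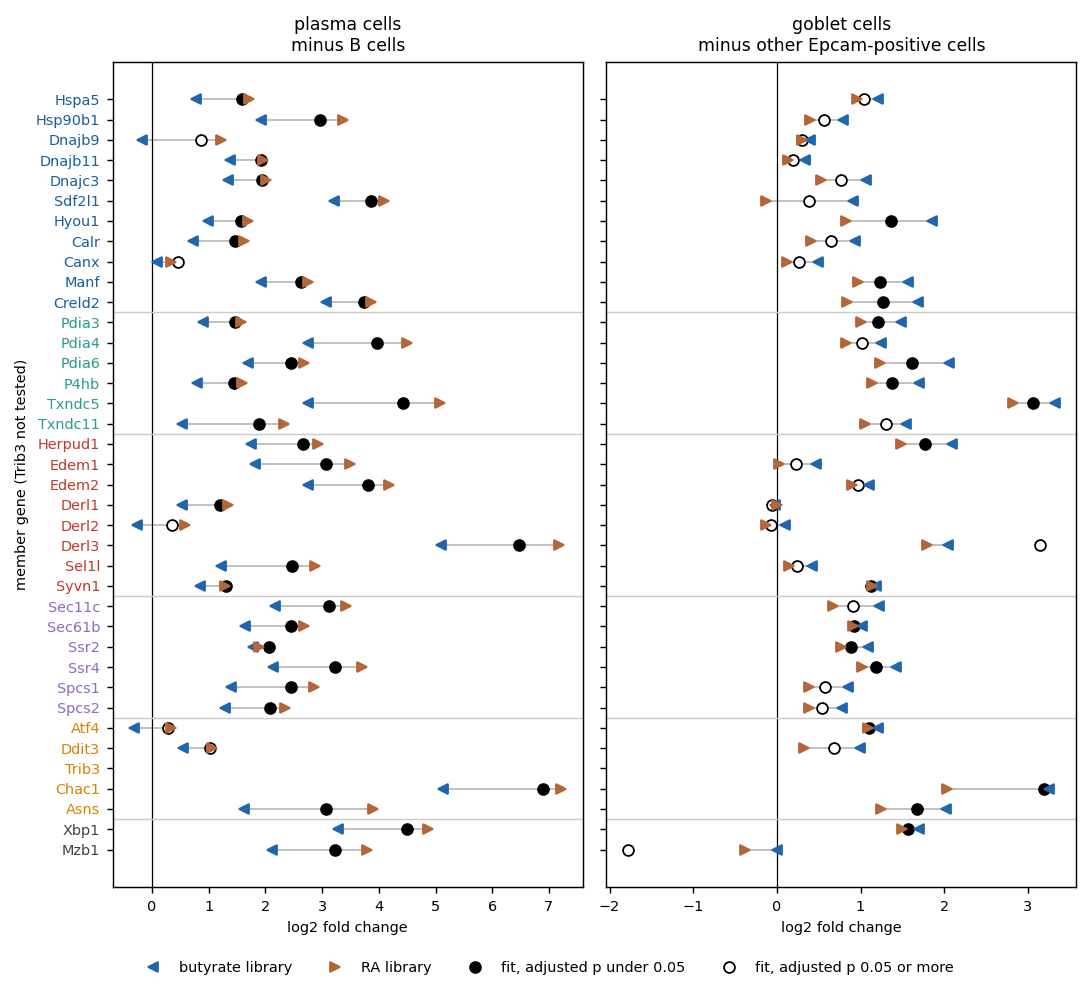
Log2 fold change of each tested member in plasma minus B cells (left) and goblet minus other Epcam-positive cells (right). The fit's estimate and each library's own value are on the horizontal axis and members by branch on the vertical axis. In the left panel 32 of 37 members lie above 0 and are called, and in the right panel 16 are.

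Other genes of the pathway, which are not members, give the setting. Of 15 sensors and transducers, 5 were higher and 2 lower in plasma than in B cells. Ern1 (Ire1), which splices Xbp1, was 3.12 ± 0.46 higher on the log2 scale, Creb3l2, an ER-anchored factor, 4.72 ± 0.35, and Tent5c, a poly(A) polymerase that stabilises immunoglobulin mRNA, 4.61 ± 0.40. Bhlha15 (Mist1), a factor of secretory cells that Xbp1 induces, was 6.56 ± 0.94 higher, from 24 UMIs in plasma cells of both libraries together. Of 24 ER-to-Golgi genes 13 were higher and 0 lower, led by the retrieval receptor Kdelr3 at 4.49 ± 0.86. Of 22 Atf4 targets outside the members 12 were higher and 0 lower, and of 12 cytosolic heat shock genes 1 was higher and 0 lower. Cell cycle genes moved too, with 7 of 14 higher and 0 lower. Their part in the members' values was not tested.

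Goblet cells were compared in the same fit with the other Epcam-positive cells, whose class held the cells without Krt8 described above. Of the 37 tested members, 16 were higher in goblet cells and 0 lower, against 6.39% higher and 10.8% lower of all genes tested. The members' median log2 fold change was 0.96, against −0.12 over all genes tested. By branch, 4 of 6 isomerases, 3 of 6 translocon and signal peptidase genes, 3 of 4 Atf4 branch genes, 3 of 11 chaperones, 2 of 8 degradation genes and Xbp1 were called. Chac1 was 3.20 ± 0.74 higher (SE, n = 2 mice; edgeR adjusted p = 0.013), from 14 and 10 UMIs in goblet cells of butyrate and RA. Txndc5 was 3.07 ± 0.50 higher (edgeR adjusted p = 0.0015), with 271.2 CPM in butyrate and 269.4 in RA goblet cells, against 29.1 and 39.2 CPM in other Epcam-positive cells. Herpud1, a membrane scaffold of the degradation complex, was 1.77 ± 0.34 higher, Asns (asparagine synthetase), an Atf4 target, 1.67 ± 0.44, and Xbp1 1.56 ± 0.41. Atf4 was 1.10 ± 0.25 higher (edgeR adjusted p = 0.00995), with 1.20 in butyrate and 1.09 in RA. DESeq2 did not call Asns (adjusted p = 0.060). Derl3 had 3.14 ± 1.27 but was not called (edgeR adjusted p = 0.12). Hspa5 had 1.04 ± 0.35 and was not called either (edgeR adjusted p = 0.064). With at least 2 Krt8 UMIs required in both classes, Hspa5 was at 773 CPM in butyrate and 546 CPM in RA goblet cells. Other Epcam-positive cells then had 301 and 225 CPM of it. Xbp1 was at 169 and 155 CPM, against 54.3 and 52.5 CPM. Some members lay the other way, such as Derl1 in butyrate, at 54.9 against 59.3 CPM. When barcodes meeting several rules were kept, which by construction puts Epcam-positive plasma barcodes among the other Epcam-positive cells, the count was 9 higher and 2 lower, Chac1 had −0.14, Derl3 −2.76, and Xbp1 was not called (edgeR adjusted p = 0.27).

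Among sensors and transducers, 5 of 15 were higher in goblet than in other Epcam-positive cells and 0 lower. They included Ern2 (Ire1 beta), the epithelial form of the Xbp1-splicing sensor, at 3.47 ± 0.25, and the ER-anchored factors Creb3l4 at 4.92 ± 0.39 and Creb3l1 at 2.50 ± 0.21. Among 30 tested genes of translocation, glycosylation and other folding, 16 were higher and 1 lower. Agr2, an isomerase needed to make mucin, was 5.25 ± 0.29 higher, and Pdia5, another isomerase, 3.84 ± 0.29.

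The secretory classes were then set against each other. Of the 37 tested members, 27 were higher in plasma than in goblet cells and 1 was lower, against 16.8% higher and 23.6% lower of all genes tested. The median was 1.58 for the members and −0.10 over all genes tested. Derl3 differed by 6.79 ± 0.59 on the log2 scale (SE, n = 2 mice; edgeR adjusted p = 4.9e-06), Chac1 by 3.61 ± 0.57, Sdf2l1, which sits with Hspa5 and its Hsp40 partners, by 3.14 ± 0.31, and Hsp90b1 by 3.13 ± 0.35. P4hb, the founding disulfide isomerase, was the member lower in plasma cells, at −1.02 ± 0.25 (edgeR adjusted p = 0.0066), with 118.7 CPM in butyrate and 133.1 in RA plasma cells, against 297.2 and 252.6 CPM in goblet cells. With Jchain-rich barcodes that met several rules but had no Ms4a1 UMI, P4hb was no longer called (edgeR adjusted p = 0.070). Of the Atf4 branch, Chac1 alone was called. Atf4 had −0.35 ± 0.25, Ddit3 −0.32 ± 0.39 and Asns −0.13 ± 0.54. For the last 2 the libraries disagreed, with −1.22 for Ddit3 and −1.31 for Asns in butyrate, against 0.63 and 0.97 in RA. Plasma cells held 12 and 18 UMIs of Asns in butyrate and RA, and 34 of Ddit3 in each. The sign of Asns and Ddit3 also turned positive when barcodes meeting several rules were kept, at 0.35 and 0.19.

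Plasma and goblet cells differed in sensors and isomerases outside the list. Ern2 had 0 UMIs in plasma cells of both libraries and was at 102.9 CPM in butyrate and 115.6 CPM in RA goblet cells, at least 28.6-fold and 24.9-fold higher in goblet cells against a floor of 3 UMIs per library. Creb3l4 likewise had 0 UMIs in plasma cells, and was at least 17.8-fold and 12.03-fold higher in goblet cells of butyrate and RA. Ern1 ran the other way, at 113.9 and 331 CPM in plasma cells, against 73.3 and 67.9 CPM in goblet cells. Agr2 was at 10.8 CPM in plasma cells of both libraries, against 5662 CPM in butyrate and 4549 CPM in RA goblet cells. B cells had 20.7 and 24.1 CPM of Agr2, which do not make it, so its plasma cell level is no higher than that background. Ero1lb, an oxidase that recharges isomerases, was 3.95 ± 0.23 higher in plasma than in goblet cells.

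Butyrate and RA were then compared within each class, by the ratio of CPM. Genes with at least 50 UMIs over both libraries were measured, and a ratio of at least 1.5, or at most its inverse, is called past 1.5-fold. In goblet cells the members were higher in butyrate. All 34 measured members had ratios above 1, 7 were past 1.5-fold higher and 0 past 1.5-fold lower. Of all 8108 genes measured in goblet cells, 4.46% were past 1.5-fold higher and 9.37% past 1.5-fold lower. The median log2 ratio was 0.38 for the members and −0.07 over all genes measured. By branch the median was 0.79 for 3 Atf4 branch genes, 0.49 for 11 chaperones, 0.39 for 6 isomerases, 0.28 for 7 degradation genes and 0.23 for 6 translocon and signal peptidase genes.

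Sdf2l1 had the highest ratio in goblet cells, at 73.8 CPM in butyrate and 34.4 CPM in RA, 2.15-fold (95% interval 1.63 to 2.84). Ddit3 was at 80.4 CPM in butyrate and 42.5 CPM in RA, 1.89-fold (1.47 to 2.44). Hyou1 (Grp170), which recharges Hspa5 with ATP, was at 54.3 CPM in butyrate and 29.2 CPM in RA, 1.86-fold (1.37 to 2.54). Past 1.5-fold were also Asns at 1.73, the isomerase Pdia6 at 1.63, Creld2, a calcium-binding folding factor, at 1.61, and Manf, a secreted stress-induced chaperone cofactor, at 1.58. Hspa5 was 1.41-fold higher in butyrate (1.31 to 1.51), and Xbp1 1.09-fold (0.942 to 1.26). The lowest ratios were those of Txndc5 at 1.01, the translocon-associated Ssr2 at 1.01 and Atf4 at 1.02, whose intervals include 1. The abundant Sec61b, a subunit of the translocon, stood at 741.1 CPM in butyrate and 662 in RA, and Ssr4 at 568.9 and 546.5 CPM. The sensors did not share the difference. Of 14 measured sensors and transducers, 5 had ratios above 1 and 0 were past 1.5-fold, with a median log2 ratio of −0.16.

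**Figure D3:**
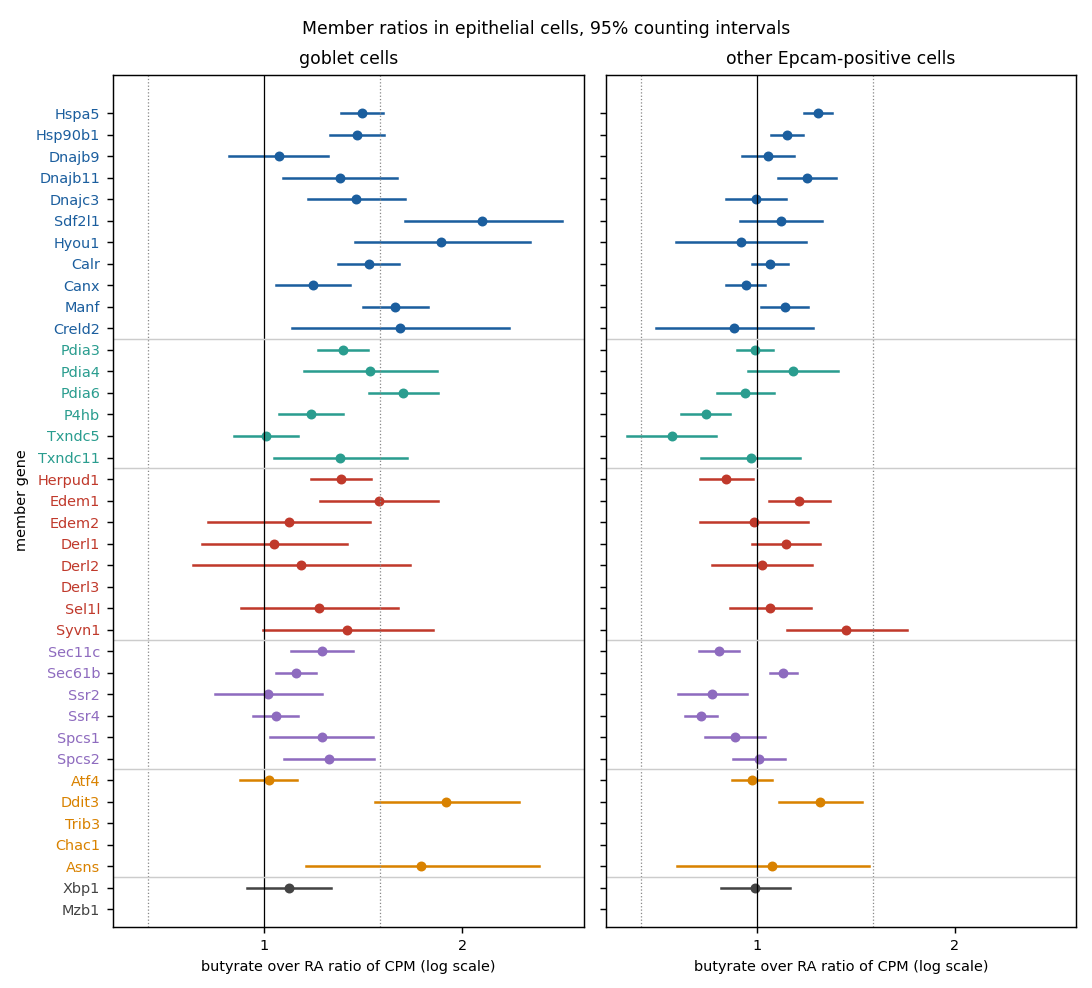
Butyrate over RA ratio of CPM for each member, on a log axis, in goblet cells and other Epcam-positive cells, with 95% counting intervals. All 34 measured members of goblet cells lie right of 1, led by Sdf2l1 at 2.15, while those of other Epcam-positive cells lie on both sides of it.

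Other genes moved with the goblet cell values. The summed goblet markers were at 62811 CPM in butyrate and 34524 CPM in RA, Muc2 at 13653 and 9057 CPM. All 10 measured cell cycle genes were past 1.5-fold lower in butyrate, summing to 144 CPM in butyrate and 385 CPM in RA. Median mitochondrial shares were 6.02% in butyrate and 8.24% in RA, and median depths 7630 and 5534 UMIs. Their part in the result was not tested. With each cell thinned to 1000 UMIs, 25 members lay above 1 and 9 below, 11 were past 1.5-fold higher and 2 lower, and Ddit3 turned to 0.913.

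Other Epcam-positive cells showed no such lean. Of 34 measured members, 17 lay above 1 and 17 below, 0 were past 1.5-fold, and the median log2 ratio was 0.00, against −0.02 over all genes. Of all genes measured there, 4.16% were past 1.5-fold higher and 6.7% lower. Syvn1 (Hrd1), the ubiquitin ligase of ER-associated degradation, had the highest ratio, 1.37 (1.11 to 1.69), then Ddit3 at 1.25 (1.08 to 1.45) and Hspa5 at 1.24 (1.18 to 1.30). Txndc5 at 0.742 (0.635 to 0.868), Ssr4 at 0.822 and P4hb at 0.836 were the lowest. The ratio of Syvn1 was 0.879 with cells thinned to 1000 UMIs, and that of Hspa5 0.964 as a mean over cells. Among cells with at least 2 Krt8 UMIs, Syvn1 had 1.41, Ddit3 1.37 and Hspa5 1.34. Txndc5 then had 0.732, Ssr4 0.833 and P4hb 0.870. Of 12 cytosolic heat shock genes, 6 were past 1.5-fold higher in butyrate here.

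In the plasma cells that met no other lineage's rule, most members were lower in butyrate. Of 36 measured members, 9 had ratios above 1 and 27 below, 1 was past 1.5-fold higher and 14 past 1.5-fold lower. Of all 3831 genes measured in plasma cells, 50.3% were past 1.5-fold higher and 8.3% past 1.5-fold lower. The median log2 ratio was −0.35 for the members and 0.59 over all genes measured. Degradation genes had a median of −0.72, Xbp1 and Mzb1 −0.81, translocon and signal peptidase genes −0.43, isomerases −0.39, the Atf4 branch −0.37 and chaperones −0.04. Txndc5 was lowest, at 317.7 CPM in butyrate and 1189 in RA, a ratio of 0.267 (0.232 to 0.308). Txndc11, an isomerase-like partner of degradation factors, had 0.356 (0.286 to 0.440), Sel1l, the scaffold that holds Syvn1, 0.476 (0.385 to 0.588), and Xbp1 0.487 (0.421 to 0.564). Derl3 had 0.556. Mzb1 had 0.670, with an interval that includes 1. Sdf2l1 was highest at 1.54 (1.31 to 1.82), with Pdia3, the isomerase partner of calnexin, at 1.28 and Canx at 1.27. With immunoglobulin and mitochondrial UMIs out of the denominator, Pdia3 and Canx turned to 0.910 and 0.897, and Sdf2l1 had 1.09 (0.928 to 1.29). With barcodes meeting several rules kept, 14 members lay above 1 and 23 below, 0 were past 1.5-fold higher and 6 lower, against 37% and 6.04% of all 7586 genes measured.

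These values stand beside the differing make-up of the class. Median Jchain UMIs per plasma cell were 46 in butyrate and 460 in RA, cell cycle genes summed to 2768 and 141 CPM, and B cell markers to 1659 and 737 CPM. With barcodes of several lineages kept and those with a Ms4a1 UMI left out, a choice made after the values were seen, 73 butyrate and 134 RA cells had immunoglobulin shares of 35.4% and 41.2%. Tnfrsf17 was then at 264 CPM in butyrate and 342 in RA. Of 37 measured members 25 then lay above 1 and 12 below, while 3588 of all 5688 genes measured lay above 1. Of these members 2 were past 1.5-fold higher and 1 lower, against 11.6% and 5.87% of all genes measured. The median log2 ratio was 0.21 for the members and 0.12 over all genes measured.

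In those cells 10 of 11 chaperones lay above 1, and Xbp1 and Mzb1 below. Creld2 was at 359 CPM in butyrate and 196 CPM in RA, 1.83-fold (1.61 to 2.09), and Pdia6 was 1.503-fold higher (1.399 to 1.61). Hsp90b1 was 1.32-fold (1.27 to 1.36), Hspa5 1.30-fold (1.23 to 1.37) and Sdf2l1 1.49-fold (1.36 to 1.63). Txndc11 was at 279.9 CPM in butyrate and 421 CPM in RA, a ratio of 0.665 (0.588 to 0.751). Chac1 had 0.671 (0.517 to 0.864), Txndc5 0.806 (0.753 to 0.864), Xbp1 0.866 (0.800 to 0.936) and Mzb1 0.777 (0.596 to 1.00). Of the members named for plasma cells, Hspa5, Hsp90b1, Sec61b, Sel1l, Atf4 and Ddit3 therefore changed sides of 1 with the choice of cells. Further members did so too, among them Calr, Pdia4, Edem2 and Spcs1. Txndc5, Txndc11, Chac1 and Mzb1 stayed below 1 and Sdf2l1 above it under both choices. Without immunoglobulin and mitochondrial UMIs in the denominator, 1 was past 1.5-fold higher and 2 lower, against 6.65% and 10% of all genes measured, with a median log2 ratio of 0.05 for the members and −0.04 over all genes. With the Ms4a1 filter on the cells of 1 lineage alone, which left 15 butyrate and 42 RA cells, 28 of 34 measured members lay above 1, 9 were past 1.5-fold higher and 2 lower, against 13.5% and 13.8% of all 1628 genes measured. Chac1 was among those above 1, at 1.34, and so was Mzb1, at 1.20 (0.621 to 2.23) from 16 and 35 UMIs.

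**Figure D4:**
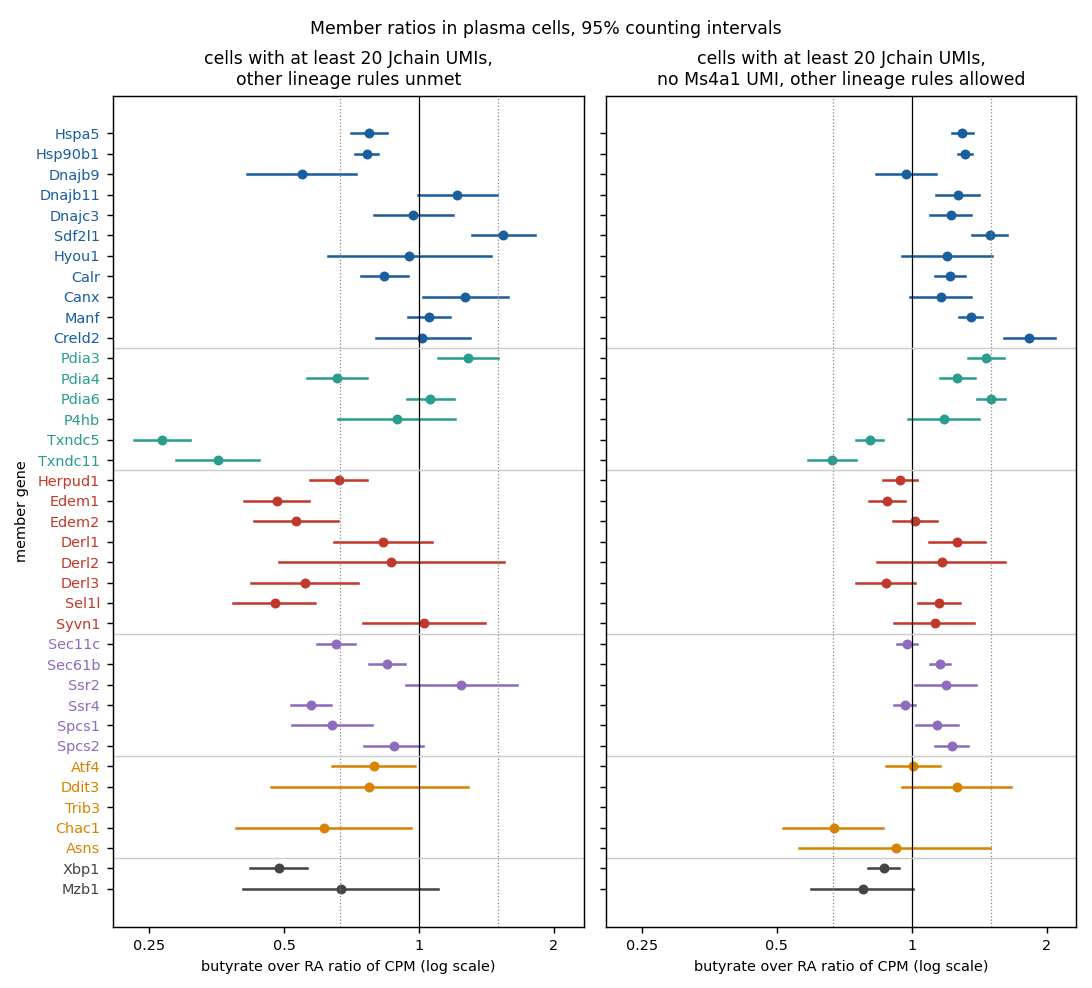
Butyrate over RA ratio of CPM for each member, on a log axis with 95% counting intervals, in plasma cells that met no other lineage's rule and in Jchain-rich barcodes with no Ms4a1 UMI. In the first panel 27 of 36 measured members lie left of 1; in the second 12 of 37 do.

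The immunoglobulin load of a cell went with its branch levels unevenly. Levels per cell were taken per UMI that was neither immunoglobulin nor mitochondrial, and Spearman's rho is given as a description across cells of 1 library, which share that library, with no p. In the Ms4a1-free cells the degradation genes had a rho of 0.73 with the immunoglobulin share over 73 butyrate cells and 0.65 over 134 RA cells. The translocon and signal peptidase genes had 0.56 and 0.46, and Xbp1 and Mzb1 0.43 and 0.53. The Atf4 branch had 0.38 and 0.45. Chaperones had 0.11 in butyrate and −0.04 in RA, and isomerases 0.16 and 0.02. In the plasma cells that met no other lineage's rule, chaperones had 0.73 over 43 butyrate cells and 0.40 over 49 RA cells, and degradation genes 0.81 and 0.57.

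**Figure D5:**
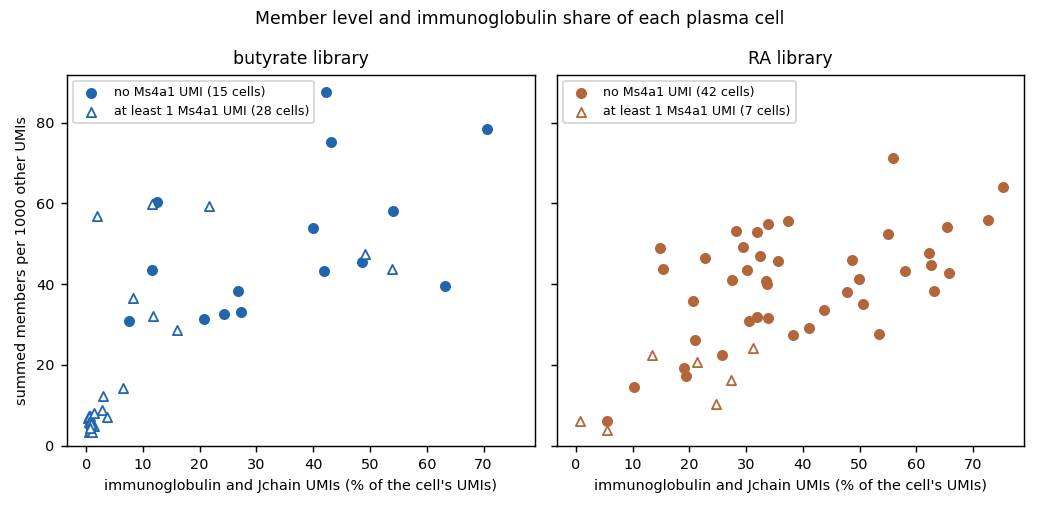
Each point is 1 plasma cell that met no other lineage's rule, with the butyrate library left and RA right. The horizontal axis is the percent of the cell's UMIs from immunoglobulin genes and Jchain, the vertical axis the summed members per 1000 other non-mitochondrial UMIs, and open triangles are cells with a Ms4a1 UMI, 28 of 43 in butyrate and 7 of 49 in RA. Most butyrate triangles lie in the lower left corner.

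In B cells most members lay within 1.5-fold between libraries. Of 36 measured, 26 lay above 1 and 10 below, 4 were past 1.5-fold higher and 0 lower, against 3.6% and 6.13% of all genes measured. The median log2 ratio was 0.08 for the members and −0.05 over all genes. Sdf2l1 was at 44.3 CPM in butyrate and 22.7 CPM in RA, 1.95-fold (1.71 to 2.23), Asns had 1.87 (1.16 to 3.12), Derl3 1.78 (0.999 to 3.35) from 51 and 16 UMIs, and Pdia4 1.501 (1.33 to 1.70). Hspa5 was level, at 486.5 and 486.3 CPM, and so was Xbp1, at 28.3 CPM in both. Of the Atf4 branch, Asns was thus above 1, while Ddit3 had 0.758 (0.661 to 0.871) and Atf4 0.846 (0.809 to 0.885). Txndc11 also had 0.846. Cell cycle genes rose beside these values, 13 of 14 past 1.5-fold higher in butyrate, summing to 496 CPM in butyrate and 238 CPM in RA. Their part was not tested.

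In fibroblasts 30 of 33 measured members lay above 1, 4 were past 1.5-fold higher and 0 lower, against 4.92% and 7.2% of all genes measured, with a median log2 ratio of 0.20 against −0.03 over all genes. Hspa5, at 1153 CPM in butyrate and 654.5 CPM in RA, was 1.76-fold higher (1.67 to 1.85). Creld2 had 2.42 (1.55 to 3.75) from 43 and 45 UMIs, Syvn1 1.67 (1.11 to 2.50), Manf 1.53 (1.34 to 1.74) and Xbp1 1.42 (1.24 to 1.63). Ssr4 at 0.907, Sdf2l1 at 0.938 and Canx at 0.992 were lowest, with intervals that include 1. All 12 cytosolic heat shock genes were past 1.5-fold higher in butyrate fibroblasts, summing to 24774 CPM in butyrate and 13372 CPM in RA. Their part in the members' values was not tested.

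In macrophages 25 members were measured, of which 18 lay above 1 and 7 below. There 4 were past 1.5-fold higher and 0 lower, against 4.94% and 11.4% of all genes measured, and the median log2 ratio was 0.22 against −0.08 over all genes. Sel1l was at 88.5 CPM in butyrate and 35.4 CPM in RA, 2.50-fold (1.53 to 4.19), Derl1, a derlin, had 1.89 (1.30 to 2.77), Manf 1.55 (1.22 to 1.96) and Hspa5 1.502 (1.37 to 1.64). Ssr4 had 0.730 (0.571 to 0.930), Herpud1 0.766 (0.583 to 1.00) and Atf4 0.818 (0.669 to 0.998). Of 12 cytosolic heat shock genes, 6 were past 1.5-fold higher in butyrate here. With cells thinned to 1000 UMIs the ratio of Manf was 0.844.

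The ratios of Sdf2l1, Hspa5 and Ddit3 are set side by side over the classes, a choice made after they were seen. Sdf2l1 was past 1.5-fold higher in butyrate in goblet and B cells. In plasma cells it had 1.54, and 1.49 in the Ms4a1-free cells. It had ratios of 1.09 in other Epcam-positive cells, 1.20 in macrophages and 0.938 in fibroblasts. Hspa5 was past 1.5-fold higher in fibroblasts and macrophages, had 1.41 in goblet cells and 1.24 in other Epcam-positive cells, and stood at 1.00 in B cells. In plasma cells it had 0.774, and 1.30 in the Ms4a1-free cells. Ddit3 had 1.89 in goblet cells, 1.30 in fibroblasts and 1.25 in other Epcam-positive cells, against 0.758 in B cells. In plasma cells its ratio lay below 1, from 34 UMIs in each library, and it had 1.26 (0.952 to 1.67) in the Ms4a1-free cells. Whether a ratio differs between classes was not tested.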

How the data were processed

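Droplet counts of 2 libraries were analysed, 1 mouse per library. The deposited matrices hold raw UMI counts per gene and barcode. The submitters' processing notes name Cell Ranger 6.0.1, Seurat 4.0.3 and 4.0.4 and build mm10, while the matrix headers name Cell Ranger 7.1.0. How barcodes were called and filtered before deposit is not given in the sources used here. The lowest barcode held 2313 UMIs in butyrate and 501 in RA. From the counts, CPM per class and library were computed, and ratios with exact conditional binomial 95% intervals. Such intervals, and floors of 3 UMIs for a count of 0, cover counting error only.

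Classes were set by marker UMIs, as in the results. No doublet caller was run. Barcodes meeting rules of several lineages were left out, 83 of 126 plasma barcodes in butyrate and 110 of 159 in RA, of which 81 and 106 of the 126 and 159 held an Epcam UMI. Class sums were tested with edgeR 4.0.16 (TMM, filterByExpr, quasi-likelihood F test, Benjamini-Hochberg over 13737 genes) in R 4.3.3, with class and library as terms. The code was tested on simulated data. Python 3.11.15, numpy 2.4.6, scipy 1.17.1, pandas 2.3.3 and matplotlib 3.10.9 did the rest. DESeq2 1.42.0 was an alternative, with other normalisation, gene filters, thinning, mitochondrial limits, marker thresholds and denominators.

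Members, gene lists and class rules were chosen with earlier results of these data known. Named members were, per class, the 3 highest and 3 lowest ratios and the 3 most abundant, per contrast the 5 largest and 5 smallest fold changes, and Xbp1, Hspa5, Derl3, Mzb1, Atf4 and Ddit3. Of the pathway lists, up to 3 genes per comparison were named. Other genes named were chosen after their values were seen. Ero1a, Ero1b and Vimp were matched under their symbols Ero1l, Ero1lb and Selenos. A second Ddit3 row had 0 UMIs.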

Additional observations from a re-analysis of the deposited data

Results flagged for a closer look

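For 8 of 111 pairs of a member and a class contrast, the difference lay above 0 in one library and below 0 in the other, each by at least 0.1 on the log2 scale. With 1 mouse per library, the difference between libraries was not tested. Values are log2 differences with a prior count of 2, and the gap is butyrate minus RA.

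In plasma minus B cells, Dnajb9, the Hsp40 partner of Hspa5, had −0.18 in butyrate and 1.21 in RA, a gap of −1.39. Derl2, a derlin of ER-associated degradation, had −0.27 and 0.59, a gap of −0.86. Atf4 had −0.31 and 0.33, a gap of −0.65.

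In goblet minus other Epcam-positive cells, Sdf2l1 had 0.91 in butyrate and −0.13 in RA, a gap of 1.05.

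In plasma minus goblet cells, Asns had −1.31 in butyrate and 0.97 in RA, a gap of −2.28. Plasma cells held only 12 and 18 UMIs of Asns in butyrate and RA. Ddit3 had −1.22 and 0.63, a gap of −1.85. Dnajb9 had −0.40 and 1.12, a gap of −1.51. Pdia3 had −0.22 and 0.40, a gap of −0.61.

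Of these 8, 7 involve plasma cells, of which 28 of 43 in butyrate and 7 of 49 in RA held a Ms4a1 UMI. The part of that difference in the gaps was not tested.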

How the results depend on the processing

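Counts of members past 1.5-fold between butyrate and RA moved with the cells and the denominator. In plasma cells the 15 (1 higher and 14 lower) became 9 as a mean over cells (4 and 5), 6 with barcodes meeting several rules kept (0 and 6), 25 without immunoglobulin and mitochondrial UMIs in the denominator (0 and 25), 3 with marker thresholds doubled (2 and 1), and 3 with no Ms4a1 UMI and barcodes meeting several rules kept (2 and 1). With no Ms4a1 UMI alone the 11 were 9 higher and 2 lower, and when thinned the 16 were 9 higher and 7 lower, so the direction of the balance turned. In goblet cells the 7 became 11 at a mitochondrial limit of 10%, 13 with cells thinned to 1000 UMIs, and 11 without the 5% of cells with most UMIs. In other Epcam-positive cells the 0 became 1 at a mitochondrial limit of 10%, 5 when thinned, 1 as a mean over cells, 5 with barcodes meeting several rules kept, and 1 without the 5% of cells with most UMIs. In B cells the 4 became 2 as a mean over cells and 2 with barcodes meeting several rules kept. In fibroblasts the 4 became 11 when thinned. In macrophages the 4 became 11 when thinned, 7 as a mean over cells, 7 with at least 20 UMIs per gene, and 2 with marker thresholds doubled.

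Among the members named for each comparison, 42 values that changed sign are listed below. Further named values also changed sides of 1. Among them, in plasma cells, were Mzb1 at 1.20 with no Ms4a1 UMI and Ddit3 at 1.26 with barcodes meeting several rules also kept. In goblet cells thinned to 1000 UMIs, Txndc5 had 0.742 and Atf4 0.993. Members not named turned too, since 28 of 34 plasma cell ratios lay above 1 with no Ms4a1 UMI, against 9 of 36 before. Goblet minus other Epcam-positive cells with barcodes meeting several rules kept gave −0.14 for Chac1, −2.76 for Derl3, −0.34 for Edem1 and −0.13 for Dnajb11. A 10% mitochondrial limit gave 0.12 for Derl2, and DESeq2 gave 0.68 for Mzb1. In plasma minus goblet cells, Asns had 0.35 with barcodes meeting several rules kept, 0.016 at the 10% limit, 0.23 with no Ms4a1 UMI, and 0.50 with both the Ms4a1 filter and such barcodes. Ddit3 had 0.19, 0.025, 0.10 and 0.63 under those settings, and Atf4 0.15 under the last.

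Among butyrate over RA ratios in plasma cells, the denominator without immunoglobulin and mitochondrial UMIs gave 0.910 for Pdia3 and 0.897 for Canx. Thinning gave 1.15 for Hsp90b1 and 2.05 for Derl3, barcodes meeting several rules kept 1.04 for Hsp90b1, and a mean over cells 1.08 for Hspa5. Doubled thresholds gave 1.33 for Hsp90b1, 1.17 for Sec61b and 1.08 for Hspa5. The Ms4a1 filter gave 1.54 for Hsp90b1, 1.399 for Sec61b, 1.34 for Hspa5, 1.02 for Xbp1 and 1.11 for Derl3. With such barcodes also kept, Hsp90b1 had 1.32, Sec61b 1.16, Hspa5 1.30, Sel1l 1.15 and Atf4 1.01. In other classes thinning gave 0.913 for Ddit3 in goblet cells, 0.879 for Syvn1 and 0.992 for Hsp90b1 in other Epcam-positive cells, 0.666 for Mzb1 in B cells and 0.844 for Manf in macrophages. In other Epcam-positive cells a mean over cells gave 0.964 for Hspa5 and 0.980 for Hsp90b1, and barcodes meeting several rules kept 0.978 for Sec61b. The cause was not tested.

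The class contrasts moved less. Called members ran from 32 to 37 in plasma minus B cells, from 11 to 24 in goblet minus other Epcam-positive cells and from 28 to 34 in plasma minus goblet cells. Without 1 library, the members' median log2 difference ran from 1.63 to 2.68, from 0.83 to 1.18 and from 0.79 to 2.08 in those contrasts. The lone library then leaves no residual degrees of freedom, so these are values with no test. The class contrasts compare classes within each mouse through the library term. For butyrate against RA no paired analysis was possible because each group has 1 sample, and the replicate numbers were given in accession order. Depth limits Trib3, with at most 32 UMIs in any class of a library. In goblet cells it limits Derl3, with 4 and 3 UMIs, and Chac1, with 14 and 10 UMIs in butyrate and RA. It also limits Chac1 in B cells, with 16 and 3 UMIs. Asns in plasma cells had 12 and 18 UMIs, or 1 and 16 in the cells of 1 lineage with no Ms4a1 UMI.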

Other observations

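Most barcodes rich in Jchain also held UMIs of Epcam, the epithelial adhesion gene. Of 126 such barcodes in butyrate and 159 in RA, 81 and 106 held an Epcam UMI, but 9 in each library held at least 2 UMIs of the keratin gene Krt8. Over those with no Ms4a1 UMI, Epcam was at 217 CPM in butyrate and 148 CPM in RA, and in those of them with no Krt8 UMI at 154 and 98.9 CPM. Krt8 per Epcam UMI was 0.646 in butyrate and 0.711 in RA in those barcodes, against 1.21 and 1.30 in goblet cells and 1.31 and 1.48 in other Epcam-positive cells. The source of the Epcam UMIs was not tested.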
